A study of Homo sapiens with 6 samples.

Results

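The receptors and ligands of the epidermal growth factor receptor family were described in a human cancer cell line with and without an siRNA against CPT2. The members are the 7 genes EGFR, ERBB2 and ERBB3 (receptors) and AREG, EREG, HBEGF and TGFA (ligands), chosen by gene name from a deposited table of 24154 genes. Each name matched 1 row, and all 7 passed the filter on low counts. Poly(A) RNA was sequenced from cells labelled HCT116, a colorectal carcinoma line. Both groups received siRNA for 48 h, a negative control in NC (3 libraries) and siCPT2 in the CPT2 knockdown (3 libraries). The labels name no further allele or agent in either group and do not say whether replicates were separate cultures. The p-values therefore measure only the spread between these libraries, which may be technical. The comparison asks which transcripts differ when CPT2, an enzyme of mitochondrial fatty acid oxidation, is targeted.

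Libraries held 28353790 to 29449380 counts. CPT2 itself had 709, 881 and 911 counts in NC replicates 1 to 3 and 492, 597 and 553 in CPT2 knockdown replicates 1 to 3. Scaled to library size, every knockdown library was below every control (19.0 to 21.3 against 23.6 to 29.1 CPM), as in 12.2% of all genes tested. CPT2 did not pass the test over all genes (log2 fold change of knockdown over NC -0.44, SE 0.17, edgeR unadjusted p = 0.0281, adjusted p = 0.338). It was at 0.02 when each library's trend with transcript GC content and length was fitted and entered as an offset, and at -0.25 when CPT2 knockdown replicate 1 was also left out. Fold changes followed transcript GC content across 13207 genes, which are not independent (Spearman's rho 0.68). CPT2 knockdown replicate 1 stood apart, with a score of 76.6 on the first principal component against -44.6 to 16 in the other libraries. Values are therefore also given without that library and with the offsets.

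The labelled cell type was checked against 10 markers of colonic epithelium. The keratins KRT8 (503.4 to 667.2 FPKM over all libraries) and KRT18 (391.7 to 650.6 FPKM) were abundant. EPCAM, a surface protein of epithelial cells, had 1.6 to 2.36 FPKM, the adherens junction gene CDH1 0.173 to 0.591 and KRT19 0.139 to 0.903. CDX1 and CDX2, the transcription factors that define intestinal epithelium, had 0 counts in every library, VIL1 at most 3 counts and CEACAM5 at most 5. Vimentin (VIM), a mesenchymal filament gene looked up after these values were seen, had 169.0 to 262.6 FPKM. Most defining markers of colonic epithelium were thus absent or low, and the cells are called by their label below. Of 12 markers of blood, stromal, endothelial and liver cells, COL1A1 had 10.9 to 17.1 FPKM, and the summed level of the list was 64.7 to 83.7 CPM in NC and 84.9 to 136.9 CPM in the knockdown. PTPRC and CD3E, which mark leukocytes and T cells, had at most 4 and 2 counts, and ALB had 0.

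EGFR, ERBB2 and ERBB3 are receptor tyrosine kinases of the cell surface that signal as pairs. Ligand binding opens the receptor so that it can pair, and the kinases then activate the RAS-ERK and PI3K-AKT pathways. AREG, EREG, HBEGF and TGFA are made as membrane-anchored precursors that bind EGFR once proteases of the ADAM family release them. ERBB2 has no known ligand and is the preferred partner, and ERBB3 has little kinase activity of its own and recruits PI3K. In colorectal cancer EGFR is a drug target, and AREG and EREG are studied as markers of response to EGFR antibodies.

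In the NC libraries EGFR and ERBB2 stood well above these ligands, and ERBB3 just above TGFA. EGFR had the highest level of the 7 genes, 26.3 ± 4.82 FPKM (SD, n = 3), and ranked 2503rd of 19974 Ensembl genes. ERBB2 followed with 14 ± 0.566 FPKM, ERBB3 with 3.89 ± 0.21 and TGFA with 3.24 ± 0.258. EREG had 1.71 ± 0.817, AREG 0.992 ± 0.297 and HBEGF 0.717 ± 0.394 FPKM. FPKM are the authors' deposited values per kilobase of transcript, the scale on which genes can be compared with each other. The NC ranges of neighbours in this order did not overlap down to EREG. Those of EREG and AREG overlapped, as did those of AREG and HBEGF, so the order of these 3 ligands was not resolved beyond the spread of the libraries. By counts per kilobase of the longest annotated transcript, TGFA (3.42) and ERBB3 (3.31) changed places, so their order depends on the gene model. The summed receptor level was 40.0, 49.3 and 43.5 FPKM in NC replicates 1 to 3, and the summed ligand level 6.35, 7.16 and 6.46 FPKM.

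**Figure D1:**
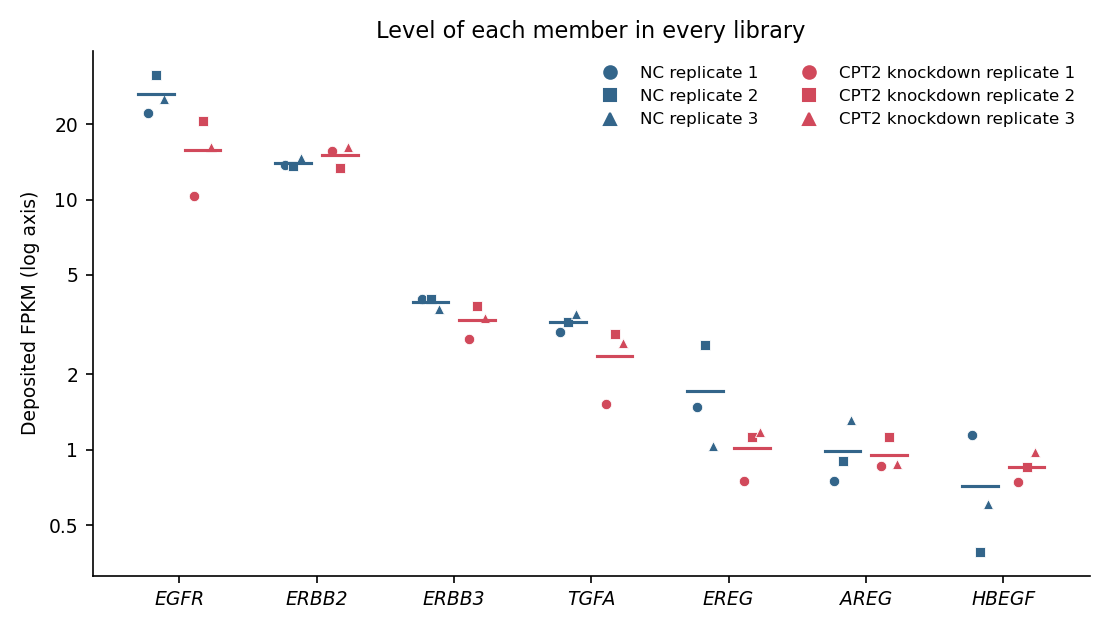
Deposited FPKM (log axis) of the 7 genes in each of the 6 libraries, with NC in blue and CPT2 knockdown in red; each symbol is 1 library and the bar is the mean of the 3. EGFR and TGFA are lower in every knockdown library than in any control, EGFR at 10.3 to 20.7 against 22.2 to 31.6 FPKM, and the ranges of the other 5 genes overlap.

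Among 21 listed receptor tyrosine kinases EGFR had the highest mean NC level, but the range of AXL (21.8 to 24 FPKM) overlapped that of EGFR (22.2 to 31.6). The 21 are not all such kinases. EPHA2, a receptor tyrosine kinase listed here with the ERK target genes, was above EGFR, at 39.0, 44.6 and 39.5 FPKM in NC replicates 1 to 3. AXL (22.9 ± 1.11 FPKM), DDR1 (16.3 ± 1.24) and MST1R (15.1 ± 0.982) stood between EGFR and ERBB2, and MET, the receptor of hepatocyte growth factor, followed ERBB2 with 13 ± 2.21 FPKM, in a range (11.1 to 15.4) that overlapped that of ERBB2. ERBB3 was 13th of the 21. ERBB4, the remaining family receptor, had only 0.082 ± 0.0332 FPKM.

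No member passed the test between the groups. By edgeR, 0 of 7 had an adjusted p under 0.05, where 0.0131% of 15302 genes did. With offsets the count was again 0 of 7, where 0.0227% of 13207 genes passed. By unadjusted p under 0.05, 1 of 7 did (EGFR), where 14.5% of all genes did, 5.29% on the lower side. DESeq2 also called 0: it gave an adjusted p for EGFR (0.155) and ERBB2 (0.385) and left it as not available for the other 5, and it called 0.166% of 7836 genes. limma-voom with sample quality weights, which gives less weight to libraries that vary more, called 1 of 7 (EGFR, adjusted p = 0.0192), where it called 19.0% of 15302 genes, 8.55% as lower. The fitted differences were below 0 for 4 members and above 0 for 3, with a median of -0.29 against 0.01 over all genes tested. The CPM (counts divided by the scaled library size) of the groups did not overlap in 3 of 7 members, EGFR, ERBB3 and TGFA, all lower in the knockdown. Over all genes the groups did not overlap in 24.4%, with 12.2% lower in the knockdown. On log2 CPM adjusted for GC and length, only EGFR of the 7 had groups that did not overlap, where 19.8% of 13207 genes did, 10.1% of the 13207 with the knockdown lower.

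EGFR was the member with the lowest p. It lies on the plus strand of chromosome 7 at 55019021 to 55211628 (GRCh38; ENSG00000146648), and it had 6663, 9523 and 7628 counts in NC replicates 1 to 3 against 2951, 5963 and 4862 in CPT2 knockdown replicates 1 to 3. On the CPM scale the levels were 222.1, 308.7 and 243.5 in NC and 116.6, 212.7 and 166.7 in the knockdown. Every knockdown library was below every control, but knockdown replicate 2 lay close to NC replicate 1, and knockdown replicate 1 was by far the lowest. The fitted difference was 35.9% below NC (log2 fold change -0.64, SE 0.23, 95% interval -1.16 to -0.13), with an unadjusted p of 0.020 and an adjusted p of 0.338 (edgeR, n = 3 each). Permuting the libraries' CPM exactly gave a 2-sided p of 0.1, the smallest possible with 3 against 3. In the authors' deposited table EGFR is called down (log2 fold change -0.64, unadjusted p = 0.0097), a call that 1.38% of 13635 genes there share. The targeted gene CPT2 is called normal there (log2 fold change -0.44, the authors' DESeq2 unadjusted p = 0.0118).

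The size of the EGFR difference moved with the libraries and with the GC trend, and its sign did not. When CPT2 knockdown replicate 1 was left out it was -0.45 (SE 0.17, edgeR adjusted p = 0.487). With offsets for GC content and length it was -0.40 (SE 0.14, adjusted p = 0.364), and with both it was -0.28 (SE 0.12, adjusted p = 0.561). Without NC replicate 2 it was -0.49 (SE 0.25, edgeR unadjusted p = 0.0815). Without CPT2 knockdown replicate 3 it was -0.65 (SE 0.28, edgeR unadjusted p = 0.0544). With any other single library left out, the edgeR unadjusted p was 0.0361 or less. The longest EGFR transcript has a GC content of 47.5% and 9821 bases. On the adjusted log2 CPM scale EGFR was at 7.72, 8.04 and 7.84 in NC and at 7.18, 7.69 and 7.50 in the knockdown, still without overlap. Among the transcripts listed as signs of RNA quality, such as SON and NKTR, all 8 tested of 12 had values below 0, with a median log2 fold change of -0.30 as counted and 0.10 with the offsets. Their summed level was 1135 to 1402 CPM in NC and 744.3 to 1215 CPM in the knockdown, and their part in the EGFR result was not tested. Mitochondrial genes took 10.5%, 10.8% and 10% of counts in the controls, and 17%, 15.6% and 8.99% in the knockdown by replicate number; the part of this share was not tested either. In bulk RNA, fewer cells that express a gene and less RNA per cell cannot be told apart.

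ERBB2, the second receptor by level, did not share the EGFR pattern. ERBB2 (ENSG00000141736, chromosome 17, plus strand, 39687914 to 39730426) had 1914, 1881 and 2069 counts in NC and 2192, 1802 and 2104 in the knockdown. In CPM these were 63.8, 61.0 and 66.0 against 86.6, 64.3 and 72.2, so that only knockdown replicates 1 and 3 lay above the controls. Its fitted log2 fold change was 0.23 (SE 0.16, 95% interval -0.13 to 0.58, edgeR adjusted p = 0.427), and 0.08 (interval -0.12 to 0.28) with GC and length offsets. ERBB2 transcripts are GC-rich for this family, with 57.5% in the longest. Exons of ERBB2 overlap those of MIEN1 and PGAP3 on the other strand. The protocol names no strand marking, so reads there cannot be told apart. The same holds for EGFR and its antisense gene EGFR-AS1, which was not analysed here.

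The 300 bases around a RefSeq start of each of these 2 receptor genes are shown because their transcripts lay on opposite sides of 0. Both run from 250 bases before to 50 bases after the start, 5′ to 3′ on the gene's strand, from RefSeq on GRCh38.p14. EGFR is at chr7:55018767-55019066 (plus strand) and ERBB2 at chr17:39687844-39688143 (plus strand). Capitals mark matches to any of 4 motifs on either strand: the TATA box TATAAA, the GC box GGGCGG, the cAMP response element TGACGTCA and the AP-1 motif TGANTCA.
EGFR: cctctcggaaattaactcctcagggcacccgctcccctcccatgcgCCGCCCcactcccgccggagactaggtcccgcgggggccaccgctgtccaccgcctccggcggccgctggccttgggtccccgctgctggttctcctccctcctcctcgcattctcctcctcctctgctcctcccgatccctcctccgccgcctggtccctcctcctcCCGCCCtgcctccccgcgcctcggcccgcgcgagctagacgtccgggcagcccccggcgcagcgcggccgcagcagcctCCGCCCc
ERBB2: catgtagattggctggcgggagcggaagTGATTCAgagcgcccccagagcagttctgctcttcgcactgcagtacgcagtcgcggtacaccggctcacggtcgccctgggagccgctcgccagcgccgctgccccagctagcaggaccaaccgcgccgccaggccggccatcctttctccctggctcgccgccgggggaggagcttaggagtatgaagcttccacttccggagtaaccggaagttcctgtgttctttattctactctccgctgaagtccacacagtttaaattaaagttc
The EGFR window has a GC content of 75.3%, 3 GC boxes and no TATAAA. The ERBB2 window has 60.7%, no GC box, no TATAAA and 1 AP-1 match. Over all 35116 RefSeq windows of this length the median GC content was 58.7%, 45.0% held a GC box, 11.5% TATAAA, 1.85% the cAMP response element and 7.71% the AP-1 motif. No 2 of these motifs overlapped in the 2 windows. Of the 7 genes, 6 had a window in the RefSeq table, and ERBB3 had none. The windows of TGFA and HBEGF held 4 and 5 GC boxes and no TATAAA, AREG held 1 TATAAA, 1 GC box and 1 cAMP response element, and EREG held 1 TATAAA alone. For EGFR and TGFA, which have 2 windows each in the table, the one nearer the annotated gene start was used. The TGFA window (70553777 to 70554076) does not reach the annotated start of that gene at 70554193. A match describes the letters only. The ERBB2 window covers the outermost annotated start of the gene, and starts beyond this window were not looked at. The annotation lists 11 transcripts of EGFR and 22 of ERBB2, and the start that these cells use was not tested.

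In CPM, ERBB3 was lower in each knockdown library than in any control, by a small margin. ERBB3 (ENSG00000065361, chromosome 12, plus strand, 56076799 to 56103505) had 537, 641 and 544 counts in NC and 310, 481 and 478 in the knockdown. The CPM were 17.9, 20.8 and 17.4 against 12.3, 17.2 and 16.4. Knockdown replicates 2 and 3 lay just under the lowest control, and replicate 1 well under it. Fitted over all libraries, the log2 fold change came to -0.29 (SE 0.20, 95% interval -0.73 to 0.15, edgeR adjusted p = 0.415) and -0.16 without CPT2 knockdown replicate 1. With GC and length offsets it was -0.23, and -0.09 when that library was also left out. On the adjusted log2 CPM scale knockdown replicate 2 (4.13) lay above NC replicates 1 and 3 (4.12 each), so the groups overlapped.

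Counts and FPKM of ERBB3 did not move in step. In FPKM, ERBB3 was at 4.02, 4.00 and 3.65 in NC and at 2.77, 3.77 and 3.35 in the knockdown, and the groups overlapped. The transcript length implied by the ratio of counts to FPKM and the total count was 4572, 5498 and 5066 bases in NC replicates 1 to 3 and 3882, 4504 and 4872 bases in CPT2 knockdown replicates 1 to 3. The highest was 1.42 times the lowest, a larger spread than in 91.8% of 15087 genes, whose median was 1.06. For the other 6 members this ratio was between 1.01 (AREG) and 1.1 (ERBB2). The sources used here do not say how the authors set transcript lengths for FPKM. ERBB3 also shares exons with AC034102.2 on the same strand, which had 0 counts.

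**Figure D2:**
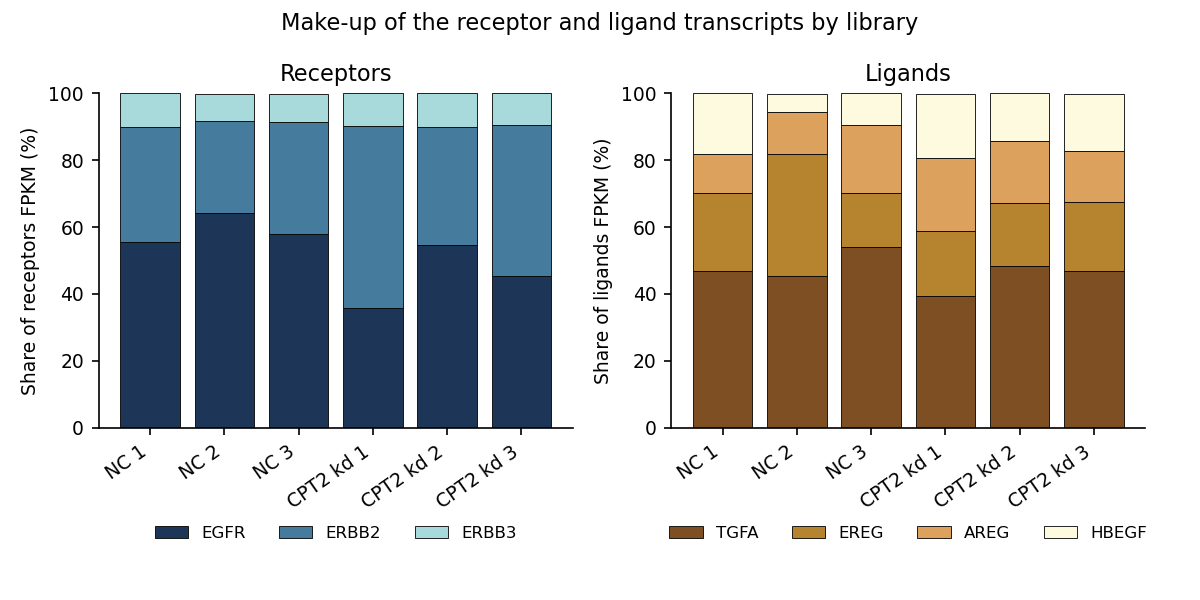
Share (%) of the summed FPKM of the 3 receptors (left) and the 4 ligands (right) taken by each gene, with 1 bar per library (kd, knockdown). EGFR made up 55.5% to 64.2% of the receptor level in NC and 35.8% to 54.7% in the knockdown, and TGFA was the largest ligand share in every library.

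EGFR held a smaller share of the receptor level in every knockdown library than in any control. The CPM of EGFR alone were also lower in every knockdown library, as in 12.2% of all genes tested. The share and the ratio of ERBB2 to EGFR both contain EGFR, so they are not separate from that difference. EGFR made up 55.5%, 64.2% and 57.9% of the summed receptor FPKM in NC replicates 1 to 3, and 35.8%, 54.7% and 45.4% in CPT2 knockdown replicates 1 to 3. The ratio of ERBB2 to EGFR was 0.62, 0.431 and 0.581 in NC and 1.53, 0.647 and 0.999 in the knockdown. ERBB2 thus exceeded EGFR in knockdown replicate 1 alone and nearly equalled it in replicate 3, while replicate 2 was just above the controls. The log2 ratio was 0.89 higher in the knockdown (exact 2-sided permutation p = 0.1, the smallest possible, 0.25 adjusted over 5 pairs), and higher in 3 of 3 knockdown libraries than in any control. Adjusted for GC and length, the difference was 0.49, again without overlap (exact permutation p = 0.1). Without CPT2 knockdown replicate 1 it was 0.58.

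Of the other 4 pairs, only ERBB3 to EGFR had groups that did not overlap. Its ratio was 0.53 higher on the log2 scale (exact permutation p = 0.1, 0.25 adjusted over 5 pairs) and 0.17 higher after adjustment for GC and length. This pair contains EGFR too, and how often ratios of other genes do not overlap was not computed. The log2 ratio of ERBB3 to ERBB2 differed by -0.36 (exact permutation p = 0.2), that of EREG to AREG -0.64 (exact permutation p = 0.4) and that of TGFA to HBEGF -0.89 (exact permutation p = 0.3), each with overlapping groups.

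TGFA, which encodes transforming growth factor alpha, was the most abundant of the 4 ligands. TGFA (ENSG00000163235, chromosome 2, minus strand, 70447280 to 70554193) had 399, 425 and 471 counts in NC and 193, 367 and 355 in the knockdown. The CPM were 13.3, 13.8 and 15.0 against 7.63, 13.1 and 12.2, so that the groups did not overlap but replicates 2 and 3 of the knockdown lay close to NC replicate 1. The fit gave a log2 fold change of -0.36 (SE 0.23, 95% interval -0.88 to 0.17, edgeR adjusted p = 0.402), -0.18 with offsets and -0.16 when CPT2 knockdown replicate 1 was left out.

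EREG and AREG, which encode epiregulin and amphiregulin, are neighbours on chromosome 4. EREG (ENSG00000124882, 74365143 to 74388751) and AREG (ENSG00000109321, 74445134 to 74455009) lie on the plus strand, 56.4 kb apart with no protein-coding gene between them. EREG had 213, 374 and 151 counts in NC and 107, 155 and 168 in the knockdown, in CPM 7.1, 12.1 and 4.82 against 4.23, 5.53 and 5.76. NC replicate 2 was above every other library, and the remaining controls lay on either side of knockdown replicates 2 and 3. For EREG the log2 fold change came to -0.63 (SE 0.33, 95% interval -1.38 to 0.12, edgeR adjusted p = 0.35). It was -0.20 without NC replicate 2 and -0.12 with GC and length offsets, the largest such shift among the members. EREG has the lowest transcript GC content of the 7, 36.1%.

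AREG had few counts. They were 29, 35 and 52 in NC and 33, 42 and 34 in the knockdown, and the CPM (0.967, 1.13 and 1.66 against 1.3, 1.5 and 1.17) overlapped fully. For AREG the log2 fold change came to 0.08 (SE 0.33, 95% interval -0.68 to 0.83, edgeR adjusted p = 0.904) and changed sign to -0.07 when library size alone was used for scaling, which moved the median of all genes from 0.01 to -0.13. Its interval includes the value fitted for EGFR, -0.64. NC replicate 2 held the highest EREG value and NC replicate 3 the highest AREG value. With so few AREG counts, whether the adjacent EREG and AREG vary together cannot be told.

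HBEGF, the heparin-binding ligand, had the lowest mean FPKM of the members in NC, within the range of AREG: in NC replicate 1 HBEGF (1.15 FPKM) was above AREG (0.749 FPKM). HBEGF (ENSG00000113070, chromosome 5, minus strand, 140332843 to 140346631) had 86, 29 and 46 counts in NC and 55, 61 and 72 in the knockdown. The CPM were 2.87, 0.94 and 1.47 against 2.17, 2.18 and 2.47. All 3 knockdown libraries lay inside the range of the controls, whose coefficient of variation was 56.6% against 7.48% in the knockdown. For HBEGF the log2 fold change came to 0.37 (SE 0.40, 95% interval -0.53 to 1.27, edgeR adjusted p = 0.59), and ran from 0.07 without NC replicate 2 to 0.91 without NC replicate 1.

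**Figure D3:**
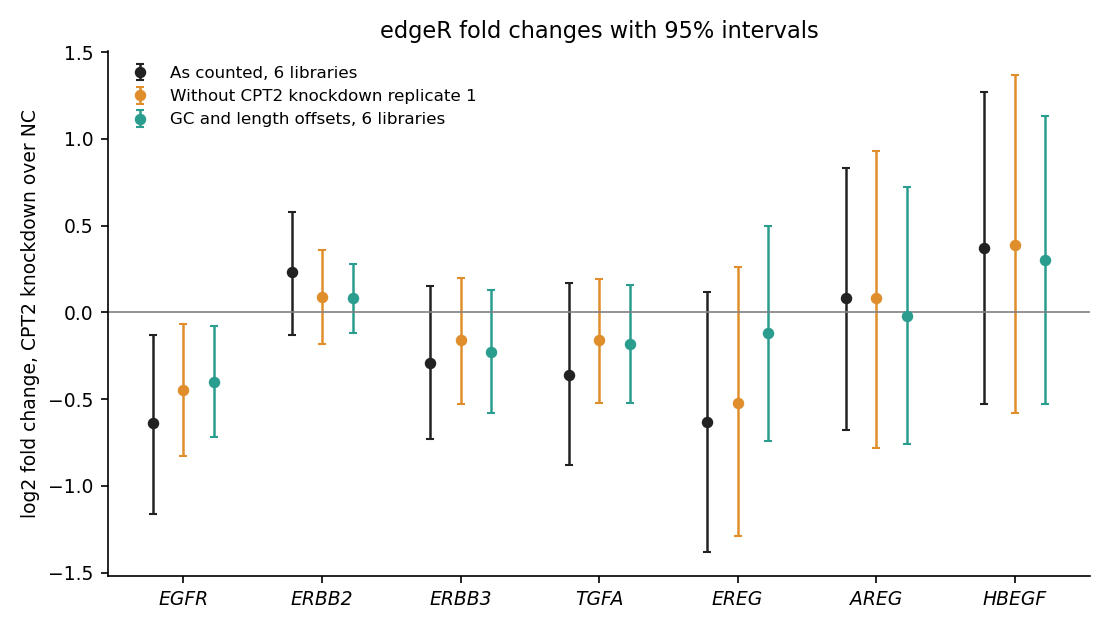
edgeR log2 fold change of CPT2 knockdown over NC for the 7 genes (points) with 95% intervals (bars), as counted, with CPT2 knockdown replicate 1 left out, and with offsets for GC and length. The EGFR intervals lie below 0 in all 3 fits (-1.16 to -0.13, -0.83 to -0.07 and -0.72 to -0.08), and the intervals of the other 6 genes include 0. Not shown are the fits without NC replicate 2 or without CPT2 knockdown replicate 3, where the edgeR unadjusted p of EGFR was 0.0815 and 0.0544.

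CPT2 knockdown replicate 1 held the lowest value of EGFR, ERBB3, TGFA and EREG and the highest of ERBB2. Against the NC mean of log2 CPM it was at -1.13 for EGFR, 0.45 for ERBB2, -0.60 for ERBB3, -0.87 for TGFA and -0.81 for EREG. Replicate 2 was at -0.26, 0.02, -0.12, -0.10 and -0.43 for the same genes, and replicate 3 at -0.62, 0.18, -0.18, -0.20 and -0.37. Replicate 2 was thus the knockdown library nearest the controls for EGFR, ERBB2, ERBB3 and TGFA. Deviations from the NC mean followed transcript GC content most in replicate 1 (rho 0.75 across genes), less in replicate 3 (0.57) and least in replicate 2 (0.15). The controls followed it too, with a rho of 0.34, -0.53 and 0.36 in NC replicates 1 to 3.

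**Figure D4:**
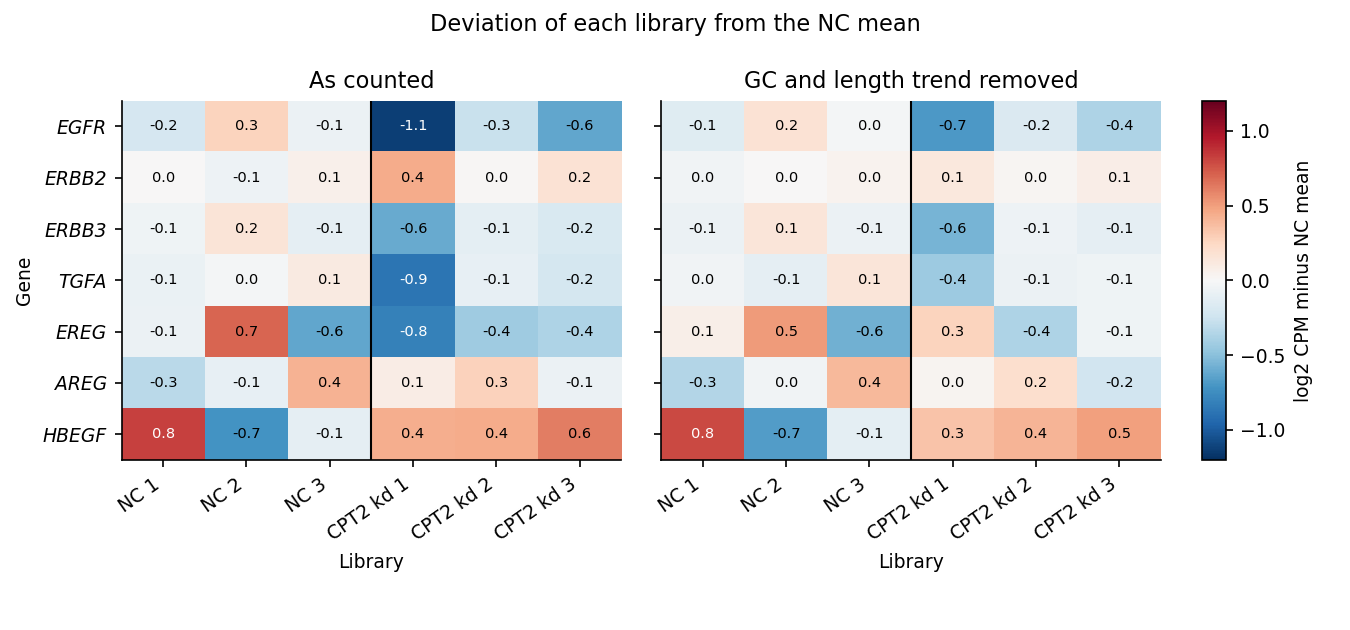
log2 CPM of each gene in each library minus its NC mean (colour and printed value; kd, knockdown), as counted on the left and adjusted for GC and length on the right. As counted, CPT2 knockdown replicate 1 is lowest for EGFR (-1.13), ERBB3 (-0.60), TGFA (-0.87) and EREG (-0.81); on the right, EGFR is the 1 gene that keeps every knockdown library below every control.

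The pattern of the receptors over the 6 libraries was shared by many genes. By Pearson's r of log2 CPM over the 6 libraries among genes of at least 5 CPM, EGFR was most like ARHGEF10 (0.9991) and RHPN2 (0.9990), but 2518 of 10463 genes had an r over 0.9. For ERBB2 the closest were PCOLCE and PIGQ (0.9991 each), with 1751 genes over 0.9. For ERBB3 they were RAD51AP1 (0.9991) and NCAPD3 (0.9988), and for TGFA SOCS2 (0.9954) and COMMD2 (0.9951). For EREG they were TRMT12 (0.99) and NRP2 (0.98), for HBEGF NCL and RTRAF (0.98 each) and for AREG B3GNT9 and CCDC163 (0.93 each). These ligands had few such genes, 43, 41 and 4 over 0.9. The r values describe 6 libraries that share the GC trend.

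Of the other family genes, NRG4, a neuregulin that binds ERBB4, had more transcript per length than any of the 4 member ligands. NRG4 had 9.98, 12.7 and 10.4 FPKM in NC and 5.00, 10.2 and 8.79 in the knockdown, with a log2 fold change of -0.42 (SE 0.25, edgeR adjusted p = 0.378) and -0.08 with offsets. Its receptor ERBB4 had 37, 40 and 17 counts in NC and 19, 25 and 18 in the knockdown (log2 fold change -0.44, SE 0.43, and 0.04 with offsets). BTC, EPGN, EGF and NRG1 had NC means of 0.247, 0.129, 0.0755 and 0.145 FPKM, and NRG2 and NRG3 had 0 counts in every library. None of the 5 tested genes of this list passed by edgeR, 0 had an unadjusted p under 0.05, and all 5 fitted values were below 0 as counted. With offsets ERBB4 (0.04) and EGF (0.15) were above 0, and the list median went from -0.44 to -0.08.

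The genes that act around the receptors were summarised in 8 lists of 107 genes, 98 of them tested. By edgeR 0 of the 98 passed, and by DESeq2 and limma-voom also 0. limma-voom with sample quality weights called 25 of the 98, where it called 19.0% of all genes. At an unadjusted p under 0.05 there were 18 (18.4%, against 14.5% of all genes), 7 higher and 11 lower, where 9.18% and 5.29% of all genes were. The median log2 fold change was -0.19, against 0.01 over all genes. All adjusted p-values in the next paragraphs are from edgeR over all genes.

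Among 8 genes of ligand shedding, ADAM10, which releases several EGFR ligands, had 75.4 ± 5.2 CPM in NC and 50.3 ± 12.3 in the knockdown (log2 fold change -0.58, SE 0.20, adjusted p = 0.338). The value was -0.11 with GC and length offsets. RHBDF2, an inactive rhomboid that guides ADAM17 to the surface, had 7.82 ± 0.817 and 10.3 ± 1.24 CPM (0.40, SE 0.19), and 0.07 with offsets. The list had 4 genes above and 4 below 0, with 1 unadjusted p under 0.05.

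Adaptors next to the receptor were mostly below 0, 12 of 14, with a median of -0.39 as counted and -0.15 with offsets. CRKL had 72.5 ± 3.73 CPM in NC and 53.6 ± 9.04 in the knockdown (log2 fold change -0.43, SE 0.17). PTPN11, the phosphatase SHP2, had 147.0 ± 16.4 and 101.3 ± 28 CPM (-0.54, SE 0.21), and -0.19 with offsets. Neither passed (adjusted p = 0.338), and 3 of the 14 had an unadjusted p under 0.05.

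The RAS-ERK cascade held values in both directions. MAPK3 (ERK1) had 42.6 ± 2.91 CPM in NC and 60.6 ± 11.2 in the knockdown (log2 fold change 0.51, SE 0.18, adjusted p = 0.338), and MAP2K2 (MEK2) had 101.6 ± 13.9 and 143.3 ± 27.4 CPM (0.50, SE 0.18). With offsets they were 0.13 and 0.16. Of 12 genes, 4 were above 0, all with an unadjusted p under 0.05, and 8 were below 0, none with one. In the PI3K-AKT branch MTOR had -0.44 (SE 0.14), which was -0.31 with offsets, and 8 of 11 genes were below 0.

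Negative regulators of the receptors were mostly on the same side as EGFR. Of 15 tested, 13 were below 0, with a median of -0.33 as counted and -0.06 with offsets, and 5 had an unadjusted p under 0.05. CBL, the ubiquitin ligase that sends activated EGFR to degradation, had 47.3 ± 7.47 CPM in NC and 30.5 ± 4.19 in the knockdown (log2 fold change -0.63, SE 0.19, adjusted p = 0.338), and -0.33 with offsets. HGS, which sorts receptors at endosomes, had 114.8 ± 11.4 and 160.8 ± 36.3 CPM (0.49, SE 0.18), and 0.08 with offsets.

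ERK feedback and target genes had 8 values above and 11 below 0. EGR1, an immediate early transcription factor, had 72.3, 79.1 and 66.4 CPM in NC and 106.9, 99.5 and 96.8 in the knockdown (log2 fold change 0.48, SE 0.14, adjusted p = 0.338), and 0.32 with offsets. IER3, another immediate early gene, had 0.44 (SE 0.15) and 0.06 with offsets. All 3 knockdown libraries were above all controls for EGR1, a direction opposite to that of EGFR. Of the list's 19 tested genes, 3 had an unadjusted p under 0.05.

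Other receptor tyrosine kinases gave no edgeR call either, and 0 of 14 had an unadjusted edgeR p under 0.05. MET had 75.9, 102.1 and 81.9 CPM in NC and 34.3, 78.8 and 60.1 in the knockdown (log2 fold change -0.58, SE 0.28, adjusted p = 0.338), and -0.26 with offsets. Its groups overlapped, but its libraries stood in an order like that of EGFR, with NC replicate 2 highest and CPT2 knockdown replicate 1 lowest. FGFR4 had 18.8 ± 1.47 CPM in NC and 24.3 ± 4.58 in the knockdown (0.37, SE 0.19), and -0.03 with offsets.

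**Figure D5:**
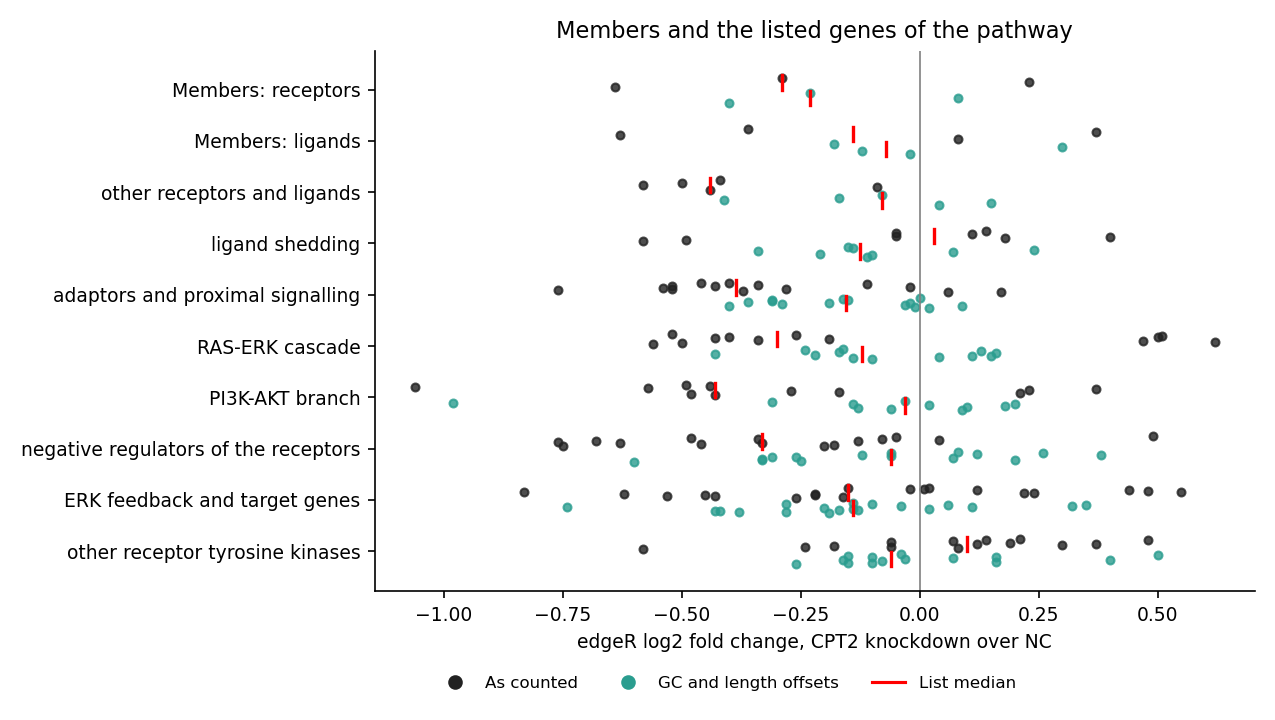
edgeR log2 fold change of CPT2 knockdown over NC for every tested gene of the members and of the 8 lists, as counted (black) and with GC and length offsets (green); 1 point per gene, red lines are list medians. With the offsets the list medians lie nearer 0 for most lists, as for the negative regulators (-0.33 and -0.06), and no gene shown passed in either fit.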

How the data were processed

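Poly(A) RNA-seq of 3 NC and 3 CPT2 knockdown libraries was used. Per the file headers, the authors deposited raw counts, FPKM, and the p-value and log2 fold change of their own comparison, in 1 table. The submitters' processing notes list GRCh38 and, with neither version nor role, StringTie, HISAT2, TopHat2, Bowtie2, edgeR and DESeq2. Counting, its strand setting and the gene models are not given in the sources used here. The p-value and log2 columns of the deposited table are empty for genes the authors did not test. After 17 stray lines were left out, 24154 genes remained, of which 19974 had Ensembl IDs and all of these matched GENCODE 29. The 4180 new loci of the authors (5.32% to 7.18% of counts) stayed in the library sizes and tests.

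The count test was edgeR 4.0.16 in R 4.3.3 (filterByExpr, 15302 genes; TMM; robust quasi-likelihood F-test; Benjamini-Hochberg over all genes, threshold 0.05). The standard error is the log2 fold change over the root of F. GC and length offsets came from a loess (span 0.3) of each library's log2 CPM (prior count 2) on GC content and log2 length of the longest transcript. Alternatives used DESeq2 1.42.0, limma 3.58.1, other scalings and filters, the replicate number as a block, each library left out, Ensembl genes alone and limma-trend on log2(FPKM + 1) and log2(FPKM + 0.1). The tests were also run on simulated counts. These held neither a GC trend nor a library that stood apart, so they do not cover those features of the data.

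The members and lists were chosen with earlier results of these data known. Genes named were the 7 members, CPT2, the 2 of lowest p in each list with at least 4 tested genes, and the 2 most like each member; an item the rule names is not reported here. Other list genes given by level, ERRFI1, ETV5, HRAS and ARAF were chosen after their values were seen. Same-numbered libraries deviated together with r of 0.25, 0.36 and 0.01, and libraries of different number with r of -0.32 to 0.09. Whether the numbers mark pairs is not settled by these values. The main fit therefore has no pairs, and the replicate block is an alternative. No column of per-sample values was left unused.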

Additional observations from a re-analysis of the deposited data

How the results depend on the processing

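Over 21 alternatives no member was called in 18, and EGFR was called in 3. These were limma-voom with sample quality weights (log2 fold change -0.55, adjusted p = 0.0192; 1 of 7 members and 2915 of all genes called, 19.0%), the replicate block (-0.67, adjusted p = 0.0479; 1 member and 633 genes, 4.14%) and GC and length offsets with the replicate block (-0.41, adjusted p = 0.0196; 1 member and 767 genes, 5.81%). Whether same-numbered libraries are paired is not known. NC replicates 1 and 2 correlated best with the knockdown library of their own number (r 0.25 and 0.36). NC replicate 3 correlated best with CPT2 knockdown replicate 1 (r 0.09), not with its own number. Of the 98 listed pathway genes, 25 were called with quality weights and 5 with the replicate block. ERRFI1 was called with the replicate block (-0.85, adjusted p = 0.0493) and with offsets and the block (-0.64, adjusted p = 0.0166), and EGR1 with offsets and the block (0.32, adjusted p = 0.0444). CBL was called with the replicate block (-0.63, adjusted p = 0.0493) and MTOR with offsets and the block (-0.31, adjusted p = 0.0465). PTPN11 was at the threshold with the replicate block (-0.57, adjusted p = 0.05). Across all alternatives the EGFR adjusted p ran from 0.0192 to 0.772 and its log2 fold change from -0.87 to -0.28. EGFR, ERBB2, ERBB3, EREG, HBEGF and TGFA kept their sign in every alternative that tested them. AREG changed sign in 8 of 20, at -0.07 on library size alone, -0.14 with quality weights, -0.02 with offsets, -0.02 with offsets without CPT2 knockdown replicate 1, and -0.02 and -0.03 on log2(FPKM + 1) and log2(FPKM + 0.1), and it ran from -0.08 to 0.33 with 1 library left out. ERBB4 had 0.04 with offsets and 0.10 with offsets and the replicate block, FGFR4 -0.03 in both and CPT2 0.02 with offsets. The cause of these changes was not tested. CPT2 was called in 1 of its 21 alternatives. The 2 genes called among all became 13 with DESeq2, 1 with limma-voom, 1 with the filter on a mean of 5 CPM, 4 with offsets without CPT2 knockdown replicate 1, 0 on either FPKM scale, and 1 to 5 with 1 library left out. With 1 library left out, 0 members were called. The filter on a mean of 5 CPM removed AREG and HBEGF. The order of levels in NC kept 7 of 7 places on the TPM scale and without any 1 control, and 5 of 7 by counts per kilobase. The ratio alternatives were chosen after seeing the data, and no ratio changed sign in them. The counts of AREG and HBEGF were between 29 and 86, the lowest of the members, and the HBEGF controls varied by 56.6% (coefficient of variation) against 7.48% in the knockdown.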

Other observations

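Some regulators outside the named pairs had values of the same size as EGFR, and they are given as values chosen after they were seen. ERRFI1, a feedback inhibitor that binds the EGFR kinase, had 34.8 ± 3.79 CPM in NC and 20.7 ± 8.99 in the knockdown (log2 fold change -0.75, SE 0.31, edgeR adjusted p = 0.338; -0.60 with GC and length offsets and -0.45 without CPT2 knockdown replicate 1). ETV5, a transcription factor induced by ERK, had 1.31 ± 0.106 and 0.738 ± 0.227 CPM (-0.83, SE 0.35), and kept -0.74 with offsets and -0.74 without that library. EGR1, another ERK target, stood on the other side of 0. HRAS and ARAF had 0.62 (SE 0.24) and 0.47 (SE 0.19), which were 0.04 and 0.15 with offsets. None of these 5 genes passed in the edgeR fit as counted. limma-voom with sample quality weights, which called 19.0% of all genes, called ERRFI1 (adjusted p = 0.0227), ETV5 (0.0283), EGR1 (0.0187) and HRAS (0.0237).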
